A study of Mus musculus with 6 samples.

Results

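In the right testes of 6 mice, 1211 short stretches of the genome held few sequenced cytosines and were nearly unmethylated in every animal. The stretches are fixed tiles of 500 bp, laid from position 1 of chromosomes 1 to 19. A tile was called sparse when at most 14 cytosine positions were listed in it in any of the 6 libraries, and measured when at least 3 of them had 10 or more reads in every library. It was unmethylated when its methylation level, the methylated share of its summed calls, was below 10% in each of the 6 libraries. The 1211 tiles were 5.83% of the 20782 sparse measured tiles. The other 19571 sparse measured tiles served for comparison, and 69245 measured tiles, sparse or dense, covered the autosomes in all.

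The mice were adult males of the KM strain. In 3 of them, the hemicastrated group, the left testis was taken out ahead of puberty, and the other 3, which the labels call normal, had a sham operation at the same time. No allele or agent is named for either group. Methylation was read by reduced representation bisulfite sequencing, in which DNA is cut at CCGG by the enzyme MspI, short fragments are kept, and bisulfite turns unmethylated cytosine into a base read as T. The whole right testis was taken, so a level averages all germ cells and somatic cells in it.

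In mammalian DNA most CpG dinucleotides are methylated. The main exceptions are CpG islands, CpG-dense stretches at many promoters that stay free of methylation, where proteins with a CXXC domain bind unmethylated CpG and help to keep DNA methyltransferases away. Methylation rises over the flanks of an island, called shores. Outside islands, lone unmethylated CpGs are found at active promoters and at enhancers or other sites bound by transcription factors.

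Promoter sequences are shown for starts in these tiles, beside starts in methylated sparse tiles. RefSeq promoter windows (build GRCm38.p6, C57BL/6J reference, 250 bp before to 50 bp after a transcription start) were used. The first 6 windows below start genes within unmethylated sparse tiles, and the last 2 within sparse tiles that were methylated. They are printed 5′ to 3′ on the gene's strand, and capitals mark the CpGs with a measured position in the tile. Vps41 and the 2 methylated examples were chosen after their values were seen, and KM mice may differ from the reference at single bases. A window can reach past its tile: 181 bp of the A830005F24Rik, 178 bp of the Bckdk, 87 bp of the Gm46967 and 18 bp of the Cyb5r2 window lie outside it.
Cyb5r2, chr7:107757983-107758282, minus strand: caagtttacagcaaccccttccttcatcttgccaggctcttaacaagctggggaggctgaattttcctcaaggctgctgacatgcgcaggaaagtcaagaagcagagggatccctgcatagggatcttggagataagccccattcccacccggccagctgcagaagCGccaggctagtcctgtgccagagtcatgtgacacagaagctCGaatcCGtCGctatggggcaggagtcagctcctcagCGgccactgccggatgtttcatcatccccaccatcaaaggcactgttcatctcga
Mad2l1bp, chr17:46153502-46153801, minus strand: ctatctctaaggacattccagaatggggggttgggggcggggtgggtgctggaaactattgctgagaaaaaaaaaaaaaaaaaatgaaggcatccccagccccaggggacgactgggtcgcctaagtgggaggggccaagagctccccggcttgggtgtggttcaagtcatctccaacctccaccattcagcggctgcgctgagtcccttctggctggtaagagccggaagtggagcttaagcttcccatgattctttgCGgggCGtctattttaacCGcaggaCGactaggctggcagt
Vps41, chr13:18717042-18717341, plus strand: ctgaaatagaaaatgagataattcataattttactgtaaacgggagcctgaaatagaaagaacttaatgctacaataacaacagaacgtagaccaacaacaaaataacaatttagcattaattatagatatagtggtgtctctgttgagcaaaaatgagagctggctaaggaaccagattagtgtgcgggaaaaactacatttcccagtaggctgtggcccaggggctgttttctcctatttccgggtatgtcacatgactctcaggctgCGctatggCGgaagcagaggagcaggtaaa
Eif4e2, chr1:87213689-87213988, plus strand: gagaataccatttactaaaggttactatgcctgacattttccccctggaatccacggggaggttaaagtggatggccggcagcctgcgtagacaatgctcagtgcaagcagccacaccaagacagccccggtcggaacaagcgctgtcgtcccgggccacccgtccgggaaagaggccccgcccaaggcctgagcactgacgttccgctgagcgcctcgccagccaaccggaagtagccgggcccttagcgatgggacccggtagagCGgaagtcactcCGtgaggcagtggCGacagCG
A830005F24Rik, chr13:48513320-48513619, plus strand: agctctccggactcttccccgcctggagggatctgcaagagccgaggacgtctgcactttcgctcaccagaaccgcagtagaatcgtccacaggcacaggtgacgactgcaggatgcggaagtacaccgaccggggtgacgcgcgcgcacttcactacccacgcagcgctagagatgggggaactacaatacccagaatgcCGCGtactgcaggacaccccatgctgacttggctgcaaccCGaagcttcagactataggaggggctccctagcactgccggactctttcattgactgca
Bckdk, chr7:127903823-127904122, plus strand: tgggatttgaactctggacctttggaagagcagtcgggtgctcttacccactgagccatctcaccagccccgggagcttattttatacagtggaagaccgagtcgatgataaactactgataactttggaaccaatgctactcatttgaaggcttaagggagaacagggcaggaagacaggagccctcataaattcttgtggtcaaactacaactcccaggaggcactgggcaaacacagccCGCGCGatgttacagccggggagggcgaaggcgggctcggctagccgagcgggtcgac
Rgsl1, chr1:153844092-153844391, minus strand: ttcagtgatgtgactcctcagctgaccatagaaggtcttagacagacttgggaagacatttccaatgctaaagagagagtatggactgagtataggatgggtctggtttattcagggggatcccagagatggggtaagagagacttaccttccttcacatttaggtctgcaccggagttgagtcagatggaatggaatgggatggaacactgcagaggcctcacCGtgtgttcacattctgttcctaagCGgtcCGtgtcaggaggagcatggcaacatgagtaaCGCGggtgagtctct
Gm46967, chr6:92154288-92154587, minus strand: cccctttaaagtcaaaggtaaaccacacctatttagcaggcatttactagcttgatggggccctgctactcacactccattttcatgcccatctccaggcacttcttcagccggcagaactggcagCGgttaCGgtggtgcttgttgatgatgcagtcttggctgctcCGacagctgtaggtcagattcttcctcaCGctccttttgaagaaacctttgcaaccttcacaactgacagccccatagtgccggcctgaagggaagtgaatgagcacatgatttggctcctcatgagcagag

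The windows of Cyb5r2, a reductase of the cytochrome b5 system, and Vps41, a subunit of the complex that fuses vesicles with lysosomes, held 9 and 6 CpGs. The windows of Rgsl1 and Gm46967 held 6 CpGs each, so the number of CpGs does not separate these methylated examples from Vps41. The window of Eif4e2, a cap-binding protein related to eIF4E, held 23 CpGs, all in its tile, and that of the long noncoding RNA A830005F24Rik held 21, of which 4 lay in the tile. In the Cyb5r2 tile the levels were 0.247%, 0.191% and 0.583% in the hemicastrated mice and 0.465%, 0.354% and 0.374% in the sham mice. In the Vps41 tile they were 0.249%, 0.215% and 0.746% against 0.478%, 0.787% and 0%. The Rgsl1 tile stood at 97.7%, 96.6% and 96.1% against 96.9%, 96.6% and 97.6%. In all 3 tiles the ranges of the groups overlapped.

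The windows also show where the word sparse holds. It counts positions that were sequenced, not CpGs in the genome. Of the 490328 listed positions inside all promoter windows, 99.5% lay at a CpG of the reference, and so did all 343 measured member positions that fell in a window. Where windows and member tiles overlapped, the reference held 4.10 CpGs per 100 bp, against 1.78 in the other sparse tiles and 9.05 in dense unmethylated tiles. Only 30.3% of the CpG cytosines there were listed, against 58.8% and 70.3%. In 30 of the 104 windows whose start lay in a member tile (28.8%) there were more than 15 CpGs over the whole window, against 1 of 202 windows (0.495%) in the other sparse tiles. The tiles are therefore described here as sparsely listed rather than as poor in CpG.

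The libraries held 64504011 to 78630942 calls each. The level on mitochondrial DNA, which is taken as nearly unmethylated, was 0.478% to 0.617%, and sets the scale on which levels near 0 can be read. Positions of the members had a median of 46.5 reads per library, against 48.6 in the other sparse tiles, and the median number of measured positions was 4 in both. The members had a median of 11 listed positions and the others 10.

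The levels that chose the tiles are given as a description. The mean level over the 1211 tiles was 1.97%, 1.80% and 1.73% in the hemicastrated mice and 1.76%, 1.78% and 1.75% in the sham mice. Over the other sparse tiles it was 80.3%, 81.5% and 80.7% against 80.3%, 82.0% and 81.5%. The median member stood at 0.965%, with quartiles of 0.530% and 2.49%, while dense unmethylated tiles had a median of 0.554%. A mean level below 1% was found in 612 members (50.5%), 107 members lay between 5% and 10%, and 14 (1.16%) had no methylated read in any library. Within a member, the highest and lowest library differed by a median of 1.85 percentage points.

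**Figure D1:**
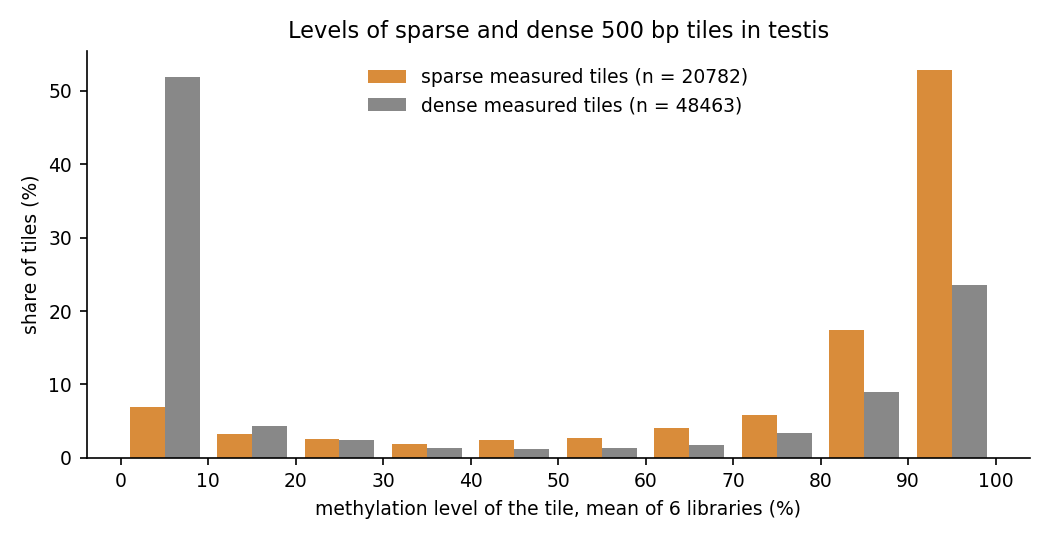
Share of tiles (%) by methylation level (mean of 6 libraries, bins of 10 percentage points) for the 20782 sparse and the 48463 dense measured tiles. The lowest bin holds 6.90% of the sparse and 51.9% of the dense tiles, and the highest bin 52.8% of the sparse tiles.

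Between 10% and 80% lay 4741 of the 20782 sparse tiles (22.8%), as the plot of tile levels shows. Of the sparse tiles, 18920 were below 10% in no library, 1211 in all 6, and 651 in 1 to 5 libraries. Members just inside the limit were a tile in Pcdha1, a clustered protocadherin gene, and one in Fxyd6, each with 9.98% in its highest library. The 5 nearest tiles outside it, in or near Fbxo17, Gm32231, Ago2, Pcp4l1 and Sulf2, had 10% to 10.02% in their highest library. Single positions were low as well, which the limit on their summed calls nearly fixed. Of the 6235 measured member positions, 87.8% were below 10% in every library and 17.6% had no methylated read at all. Over all reads, 5 were above 20%. In 52 members (4.29%) some position was above 20% in a library.

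Measurements that did not enter the choice gave low levels too. When tiles were chosen by 5 libraries alone, 1386 to 1481 were found, and 97.3% to 99.0% of them were below 10% in the library left out. Among the sparse tiles not chosen, 1.22% to 1.81% were below 10% there. The highest held-out level was 62.5%, in sham mouse 2. Positions of the member tiles with fewer than 10 reads in some library had also not been used. Their level was 3.40% ± 0.321 (SD, n = 6 libraries), with a range of 2.86% to 3.75%, against 77.9% ± 1.10 at such positions of the other sparse tiles. These thinly read positions of the members held 11992 to 19443 reads per library, and their level lay above the mean level of the tiles in all 6 libraries. The first level pools all reads and the second averages tiles, so the 2 are weighted differently. The thinly read positions share tiles, animals and libraries with the used positions, and may share DNA fragments with them.

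**Figure D2:**
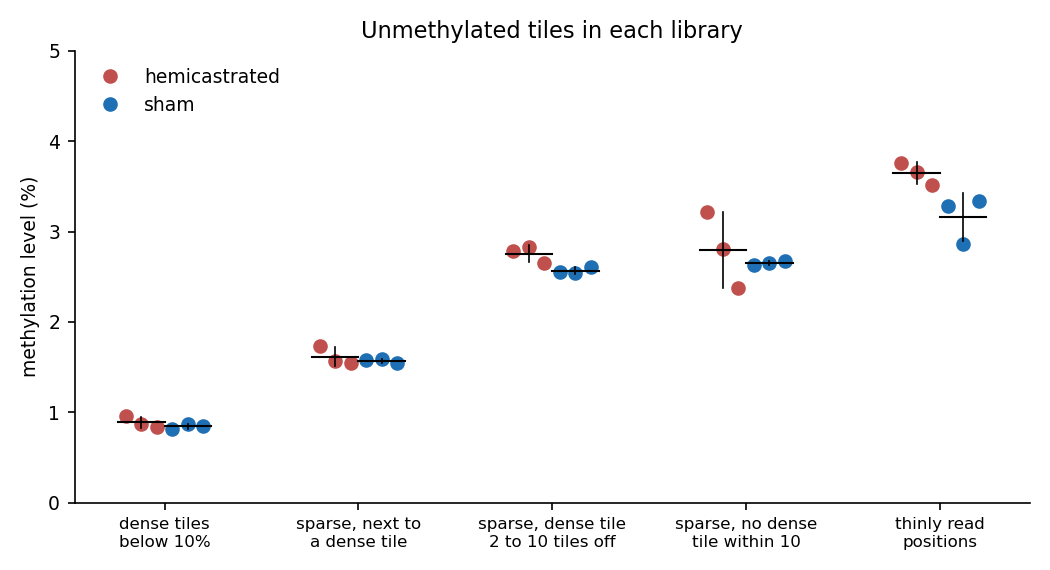
Methylation level (%) in each library, red for hemicastrated and blue for sham mice, with group means and SD (n = 3) in black, for dense unmethylated tiles, for members in 3 classes by their distance from a dense tile, and for thinly read positions of the members. Members beside a dense tile sit between 1.54% and 1.74%, below those with no dense tile within 10 tiles (2.38% to 3.22%). Levels of thinly read positions pool reads, and the other levels average tiles.

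Most of the members adjoined a dense tile, one with more than 14 listed positions. This held for 986 of 1211 (81.4%, Wilson 95% interval 79.1% to 83.5%), against 3930 of 19571 other sparse tiles (20.1%). A dense tile lay on 1 side of 888 members and on both sides of 98. Where a dense neighbour was measured, all such neighbours were themselves below 10% in every library for 726 of 743 members (97.7%), against 150 of 1887 other sparse tiles (7.95%). Read the other way, 726 of the 876 sparse tiles whose measured dense neighbours were all unmethylated were members (82.9%). Of the 1742 sparse tiles whose measured dense neighbours all failed that limit, 11 were members (0.631%). The mean level was 1.59% in members beside a dense tile, 2.66% in the 119 with a dense tile 2 to 10 tiles away and 2.73% in the 106 with none that near. The neighbour tiles played no part in the choice, but they share animals, libraries and in places DNA fragments with the members.

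The measured positions of the members lay on the side of the dense tile. In members with 1 dense neighbour, 91.3% of 4634 measured positions were in the 250 bp facing it, against 76.1% in other sparse tiles of that layout. The median over tiles of the mean distance from the border was 53.6 bp and 94.5 bp. The low level of such a tile thus mostly describes its first bases, next to the dense tile.

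Methylation rose with distance from an unmethylated dense tile. This was measured in all 797 sparse tiles with 1 dense neighbour that was itself unmethylated, chosen by the neighbour and not by their own level. The level was 1.65% ± 0.115 (SD, n = 6 libraries) within 50 bp of the border, 2.98% ± 0.177 at 50 to 100 bp, 6.40% ± 0.369 at 150 to 200 bp and 10.7% ± 0.664 at 200 to 250 bp. It reached 19.6% ± 0.543 at 250 to 350 bp and 32.2% ± 0.789 at 350 to 500 bp. The order of these bins was the same in all 6 libraries. Beside a dense tile above 50%, in 1316 sparse tiles, the level was 87.2% ± 0.897 within 50 bp and 89.5% ± 0.867 at 350 to 500 bp. The farthest bin of the first kind rested on 213 positions in 73 tiles, and the tiles of each bin were partly different ones.

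**Figure D3:**
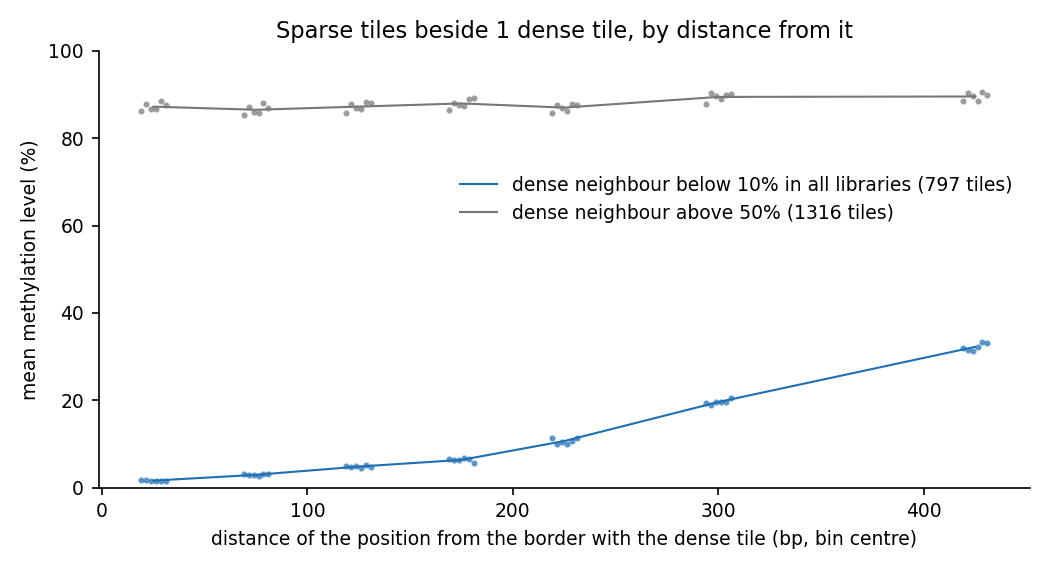
Mean methylation level (%) of measured positions in sparse tiles with 1 dense neighbour, against the distance (bp) from the border with it; points are the 6 libraries and lines their mean. Beside unmethylated dense tiles (blue, 797 tiles) the level climbs from 1.65% to 32.2%, while beside dense tiles above 50% (grey, 1316 tiles) it stays between 86.5% and 89.5%.

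Beyond the borders of the member, values on the 2 sides are given at the same distances. These members were picked for a dense tile on 1 side only. The first step therefore sets dense tiles against tiles that are not dense, and does not compare distance alone. For the 888 members with 1 dense side, the adjoining dense tile had a mean level of 1.09% ± 0.0597 (SD over libraries, 667 measured), while on the far side only 15 of the first tiles were measured, at 22.0% ± 1.16. At 1500 bp the dense side had 4.20% ± 0.157 (149 measured) and the far side 14.6% ± 0.338 (33 measured). At 3000 bp they had 23.2% ± 0.337 (42 measured) and 36.4% ± 0.271 (39 measured). Most tiles on the far side gave no value, and the measured tiles differ from step to step. Another member adjoined 35 members (2.89%), and a member adjoined 20 of the other sparse tiles (0.102%). Adjoining tiles were seldom measured. Beside the 225 members without a dense neighbour, 41 were measured, and 30 of these (73.2%) were below 10% in every library. Beside other sparse tiles of that layout the count was 19 of 1378 (1.38%). Adjoining members formed 17 runs in all. The longest had 3 tiles, chr4:143299001-143300500, at 2.91%. It spans a boundary of Pdpn, which encodes the membrane glycoprotein podoplanin, and its last tile lies outside the gene.

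The exceptions are the 11 members with no measured dense neighbour below the limit in all libraries. In 9 of them the mean level of the neighbour was below 20%. The contrast was larger in the other two. The tile chr2:119296501-119297000 in Vps18, another subunit of the lysosomal tethering complex, had 1.08%, 0% and 0% in the hemicastrated and 0.813%, 0% and 0.355% in the sham mice, while its dense neighbour stood at 88.6%. The tile at the start of Bckdk, the kinase that switches off branched-chain amino acid breakdown, had 1.30%, 2.56% and 0.833% against 0% in each sham mouse. The groups did not overlap there (edgeR unadjusted p = 0.0387), though no member passed after adjustment. The tiles on the 2 sides of this Bckdk tile stood at 0.594% and 39.2%. Its lowest library held 75 reads in the tile. Also in this set, Zrsr1, a gene known to be imprinted and carried inside Commd1, had a neighbour at 10.8%.

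Steep steps were also seen where both adjoining tiles were measured, in 31 members. The mean of their 2 flanks had a median of 4.08%, was below 10% in 21 and above 50% in none. The steepest was chr11:73137001-73137500 at Haspin, a histone H3 kinase gene known for its activity in male germ cells, which lies within Itgae. The tile had 1.46%, 1.45% and 1.35% against 1.13%, 1.38% and 2.02%, between flanks of 92.1% and 0.468%. At A830005F24Rik, whose window is printed above, the tile stood at 0.508% between flanks of 0.485% and 70.4%. Its levels were 0.515%, 0% and 0% against 0.995%, 0.855% and 0.680%, lower in the hemicastrated mice without overlap (edgeR unadjusted p = 0.0869). A tile inside Dusp15, a dual-specificity phosphatase gene, had 7.50% between 0.687% and 93.7%. Its levels were 8.90%, 8.47% and 9.13% against 6.27%, 4.94% and 7.32%, higher in the hemicastrated mice without overlap (edgeR unadjusted p = 0.0723). In each of these 3 the low flank lay on 1 side and the methylated one on the other.

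The 225 members (18.6%) without an adjoining dense tile include 106 with no dense tile within 10 tiles on either side, here called remote. Remote tiles were 8.75% of the members and 42.8% of the other sparse tiles. The thinly read positions of remote members had 4.42% ± 1.20 (SD, n = 6 libraries), against 3.08% ± 0.336 in members beside a dense tile. For the other sparse tiles without a dense neighbour the same positions had 79.7% ± 1.09. Low levels in these members were also found at positions that had not been used to choose them. Such positions share tiles, animals and libraries with the used ones, and may share DNA fragments.

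A transcription start lay in 15 of the 102 remote members on chromosomes with promoter windows, and 10 of the 15 genes were protein coding. Their windows held a median of 6 CpGs, from 3 to 28, and the tiles had levels of 0.397% to 6.11%. Beside Vps41, they include Spef2, which is needed to build the sperm flagellum, with 2.68%, 1.32% and 1.28% in the hemicastrated and 0%, 1.37% and 3.57% in the sham mice. The start of Bmpr1b, a receptor for bone morphogenetic proteins, had 0.295%, 0.755% and 1.74% against 0.318%, 0.424% and 2.09%. The start of Ccdc170, which encodes a coiled-coil protein, was the highest, with 6.96%, 8.58% and 6.43% against 5.34%, 5.12% and 4.26%. There the groups did not overlap, and edgeR's adjusted p was 1, as for each member tested. Zinc finger genes were represented by Zfp640, at 1.87%, and Zfp85, at 0.855%. These 15 were listed after their values were seen.

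Other remote members lay far from any gene. The tile chr3:150764001-150764500 lay 247771 bp from the nearest gene end and gave no methylated read among 2447 reads at 8 positions in the 6 libraries. It held the most reads of the 14 members without a methylated read. Mitochondrial DNA, by comparison, gave 0.478% to 0.617%. Whether the listed positions of such tiles are cytosines in KM mice was not tested. A tile at chr2:74908001-74908500, 20924 bp from the pseudogene Gm14427, had 3.71%, 6.50% and 4.81% against 4.94%, 5.63% and 4.76%. Near Cts3, a cathepsin gene, a remote tile had no methylated read among 879. Members more than 10000 bp outside genes numbered 78 in all. The 4 with the most reads in their lowest library lay beside dense tiles. Among them were chr17:83323001-83323500, 27430 bp from Eml4, at 1.26%, and chr8:84197001-84197500, 11018 bp from Mir23a, at 0.611%. The Mir23a tile had 0.306%, 0.331% and 0.443% in hemicastrated and 1.05%, 0.669% and 0.868% in sham mice, without overlap (edgeR unadjusted p = 0.0418).

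Members were mostly found at gene ends. Within 1000 bp of a RefSeq gene boundary lay 754 of 1211 members (62.3%), against 2411 of 19571 other sparse tiles (12.3%) and 76.9% of dense unmethylated tiles. Deeper inside genes lay 24.1% of the members and 50.7% of the others, and outside genes 13.6% and 37.0%. A transcription start lay within 1000 bp of 646 of 1168 members (55.3%; no windows were at hand for chromosome 18), against 4.54% of the others, and inside the tile for 98 (8.39%), against 1.05%. Of the 98 genes that start in a member, 73 were protein coding and 25 long noncoding RNAs. Of the members without a dense neighbour, 36.0% lay at a gene end and 37.3% outside genes, against 68.3% and 8.22% of those with one.

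**Figure D4:**
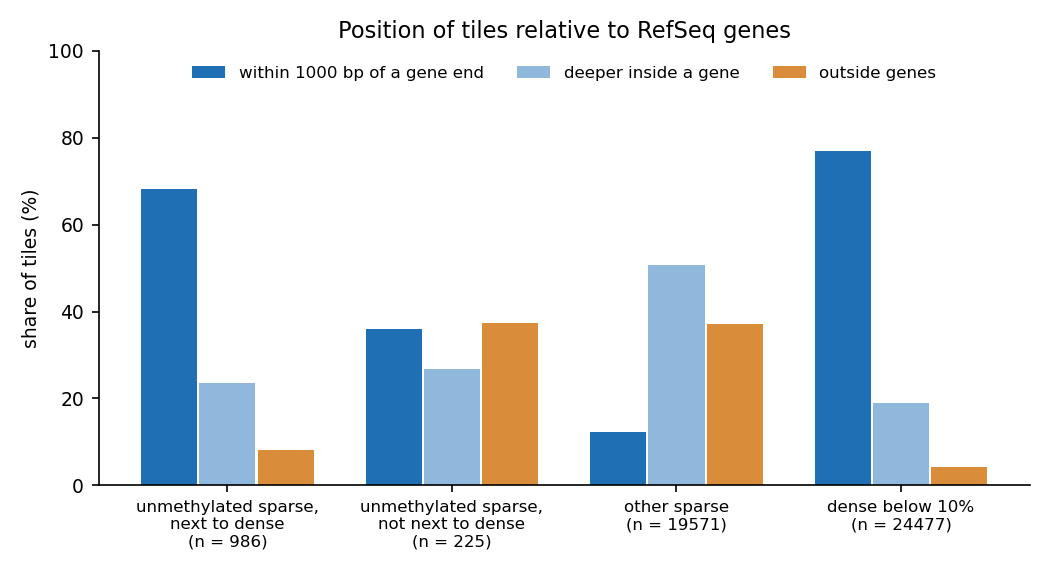
Share of tiles (%) within 1000 bp of a gene end, deeper inside a gene, or outside genes, for members with and without an adjoining dense tile, other sparse tiles and dense unmethylated tiles. Gene ends hold 68.3% of the members beside a dense tile, 36.0% of those without one and 12.3% of the other sparse tiles.

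The starts with the deepest coverage included several genes of general cell function. Mad2l1bp encodes a protein that binds the spindle checkpoint protein Mad2, and its tile had 0.937%, 0.429% and 0.644% in the hemicastrated and 0.422%, 0.598% and 0.692% in the sham mice. The Eif4e2 tile had 1.19%, 0.307% and 0.728% against 1.56%, 0.682% and 0.269%. A tile with the starts of Tcte3, a dynein light chain gene known from testis, and Ermard had 0.785%, 0.270% and 0.485% against 0.626%, 0.419% and 0.320%. The start of Sh2b3, an adaptor that limits cytokine signalling, stood at 0.421%. Cntfr, which encodes the ciliary neurotrophic factor receptor, held 2 starts in 2 adjoining members, at 0.893% and 3.33%. In the second of these the values ran from 2.09% to 4.01%, above every value of the first, which ran from 0.531% to 1.17%.

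Inside genes, the members with the most reads in their lowest library included Paip1, which binds poly(A)-binding protein, and 2 long noncoding RNAs. The Paip1 tile had 1.53%, 0.167% and 0.634% against 0.144%, 0.0976% and 0.237%. The tiles in Gm33293 and Gm27230 had means of 3.45% and 5.83%. A tile in Tmeff1, a transmembrane gene with follistatin-like domains, stood at 3.23%. Their lowest libraries held 685 to 843 reads in the tile.

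Whole promoter windows, including bases outside the tile, were then compared. The 104 windows had a median of 9 CpGs in 300 bp, with quartiles of 7 and 16, against 5 in 202 windows of other sparse tiles, 25 in 8986 windows of dense unmethylated tiles and 7 in all 31396 windows. The median ratio of observed to expected CpG was 0.491, 0.250 and 0.820 in the first 3 sets. Short motifs were counted on both strands. The GC box GGGCGG, known to bind Sp1, was found in 38.5% of the member windows, 19.8% of other sparse, 74.3% of dense unmethylated and 36.0% of all windows. The ETS motif CCGGAAG, which contains the MspI site CCGG, was in 14.4%, 7.43% and 19.9% of the first 3 sets, and the E-box CACGTG in 8.65%, 2.48% and 10.7%. These 3 motifs contain CpG, as do the cyclic AMP element and the NRF1 core given below, so their shares can move with CpG content. The TATA box TATAAA was in 8.65% of member and 10.9% of other sparse windows, and the CCAAT box CCAAT in 31.7% and 39.1%. The partial X-box GTTGCC, known to bind RFX factors, was in 7.69% and 13.9%, the cyclic AMP element TGACGTCA in 1.92% and 1.49%, and the NRF1 core CGCATGCG in none of either. A match describes letters in the window and no binding was measured.

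Gene classes were counted within 500 bp of the tiles. Protein-coding genes were near 73.5% of members and 52.2% of other sparse tiles, and long noncoding RNAs near 16.8% and 10.7%. Without an adjoining dense tile, protein-coding genes were near 40.4% of members and 50.1% of others, the reverse order. For long noncoding RNAs these shares were 21.8% and 10.8%. Zfp genes, which encode zinc finger proteins, were near 30 members (2.48%) and 124 others (0.634%). Transfer RNA genes, which RNA polymerase III transcribes from promoters inside the gene, were near 6 members (0.495%) and 5 others (0.0255%). All 6 members and 3 of the 5 others adjoined a dense tile. The tile near n-TLtaa3, a leucine transfer RNA gene, had 0.913%, 0.879% and 0.428% against 0.147%, 0.295% and 0.731%. The 6 member tiles had mean levels of 0% to 1.18%, and the other 5 sparse tiles near transfer RNA genes 9.70% to 94.1%. That members are lower here is set by the rule that chose them.

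Few genes of the testis lists could hold a member. Of 12 gene lists, which cover spermiogenesis, meiosis, the piRNA pathway, germline genes silenced in soma, spermatogonia, Leydig and Sertoli cells, DNA methylation, chromatin boundaries, ubiquitous genes and the genes of other tissues, 11 had no member in or within 1000 bp of a gene. In the list of genes for Sertoli cells, the somatic cells that nurse the germ cells, 7 of 16 genes had a sparse measured tile and 1, Inhba, had a member. Inhba encodes the subunit shared by activin A and inhibin A, and its tile chr13:16017001-16017500, 5150 bp from a start, had 0%, 0% and 1.22% against 0.469%, 0.427% and 0.483%. Among genes of the DNA methylation list, 7 of 10 had a sparse measured tile and none a member. Spermiogenesis and meiosis genes had few sparse measured tiles, in 4 of 39 and 4 of 28 genes. Summed over the lists, with a gene counted once per list, 55 genes had one. Of these 55, 1 was at a member, while 5.83% of all sparse tiles were members. The first is a share of genes, which can hold several sparse tiles, and the second a share of tiles. The lists say little about the members in either direction.

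Members were spread over all autosomes, from 4.30% of the sparse tiles on chromosome 3 to 8.75% on chromosome 13. They fell in 810 megabases, of which 551 held a single member. The megabase with the most, 9 of 46 sparse tiles, was chr7:45000001-46000000, with members at Ftl1, Kdelr1, Ppfia3, Ruvbl2 and Sphk2. The share of members rose with the number of listed positions, from 3.09% of tiles with 3 to 6 positions to 8.42% of those with 13 or 14. Coverage far above the rest was seen in few members. Both tiles at the pseudogene Gm12623 held the most reads per tile, 31446 and 23714 over the 6 libraries, at 3.53% and 3.17%. In 1 member the reads per position exceeded the median by over 10 times, and in 4 by over 5 times.

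The comparison of the 2 groups asks whether removal of the left testis went with another methylation of these tiles in the remaining testis. The mean level was 1.83% ± 0.125 in hemicastrated and 1.76% ± 0.0157 in sham mice (SD, n = 3 each). The difference was 0.0705 percentage points with an SE of 0.0725 (exact two-sided permutation test, p = 0.5, adjusted p = 0.758 over 13 comparisons, the smallest p possible being 0.1). Members beside a dense tile differed by 0.0478 points (exact p = 0.8) and remote members by 0.150 (exact p = 0.7), both higher in the hemicastrated group. In both cases the group ranges overlapped. The rule holds every level below 10% in all mice and so bounds any difference. In whole testis, another makeup of cell types and another methylation within cells cannot be told apart.

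In 3 of the 13 comparisons the groups did not overlap. In the 119 members with a dense tile 2 to 10 tiles away, the levels were 2.78%, 2.83% and 2.65% in hemicastrated and 2.55%, 2.54% and 2.61% in sham mice, a difference of 0.188 points. At the thinly read positions of all members they were 3.75%, 3.66% and 3.51% against 3.29%, 2.86% and 3.34%, a difference of 0.480 points. At those thinly read positions with at least 3 reads in the library, a subset of the same reads, they were 3.28%, 3.23% and 3.03% against 2.97%, 2.48% and 2.72%. Each had the smallest p the design allows (exact permutation test, p = 0.1, adjusted p = 0.433 over the 13 comparisons), which does not pass 0.05. At thinly read positions of dense unmethylated tiles the group means were 1.06% ± 0.0894 and 1.03% ± 0.0574, and at those of the other sparse tiles 77.7% ± 0.677 and 78.2% ± 1.55 (SD, n = 3). In both of those sets the ranges overlapped.

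Tile by tile, no member passed the test between the groups. With edgeR's quasi-likelihood test on methylated and unmethylated counts, fitted to 71149 measured tiles of all autosomes, X and Y, 0% of the tiles passed an adjusted p of 0.05, and 0 of the 1197 members that could be tested did so. The smallest adjusted p among the members was 1 and among all tiles 0.108. At an unadjusted p below 0.05 stood 52 of the 1197 members (4.34%), beside 4.27% of all tiles. Of these, 32 were higher in hemicastrated mice, where the share over all tiles was 2.05%, and 20 were lower, where it was 2.22%. The member shares were 2.67% and 1.67%. With limma, 91 members (7.60%) were below 0.05 unadjusted, beside 4.99% of all tiles, and 0 passed after adjustment. The 14 members without a methylated read could not be tested.

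Members among those with the smallest p in either direction show the size of what was seen. A remote tile in Pkhd1, the gene of the ciliary protein fibrocystin, had 2.33%, 1.78% and 1.79% in hemicastrated and 0.585%, 0.605% and 0.649% in sham mice (edgeR unadjusted p = 0.0016, adjusted p = 1). The groups did not overlap there, and the tile held 3442 reads at 13 positions. A tile in Dlgap1, a scaffold gene of synapses, had 0.826%, 0.478% and 1.03% against 3.14%, 2.99% and 2.43%. In the Dlgap1 tile the groups did not overlap, and the edgeR adjusted p was 1.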

How the data were processed

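DNA methylation was measured in 6 libraries, 1 per mouse. Per the labels' protocols, MspI fragments were size-selected, bisulfite-converted, amplified by PCR and read from both ends. Per the submitters' processing notes, the tools were TopHat2 2.0.11 and Bismark of a version not given in the sources used here, on build GRCm38. Their roles, trimming and duplicate removal are not stated. The authors deposited, for each cytosine position, raw methylated and unmethylated read counts and the level in percent, which equals the ratio of the counts at every position. The files give neither strand nor context.

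Counts were summed over 500 bp tiles at positions with at least 10 reads in all 6 libraries, with at least 3 such positions per tile. The libraries held 64504011 to 78630942 calls. The Wilson interval covers counting error only and treats tiles as independent, which tiles of the same island or run need not be. Read counts can include PCR copies, which are not independent molecules. Means per mouse entered exact permutation tests (two-sided), with Benjamini-Hochberg adjustment. All measured tiles were tested with edgeR 4.0.16 (quasi-likelihood F test, 1 column per library, a term for methylation by group, adjusted p below 0.05), a model tested on simulated data, and with limma 3.58.1, in R 4.3.3. Other steps used Python 3.11.15 and scipy 1.17.1. Genes and promoter windows came from RefSeq tables of GRCm38.p6. The gene table gives no strand, so a gene end is either boundary.

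The rule, the gene lists and the motifs were chosen with earlier results of these data known. Tiles were named by reads in the lowest library (starts in the tile, inside genes, outside genes), by the step to both flanks, by runs, by the gene lists, by the smallest p in each direction, by nearness to the limit and by total reads. The remote tiles with a start, the tiles without a methylated read and the methylated examples fall outside that rule and were picked with their values known. Alternatives changed the limits of the rule, the tile borders, the distances, the weights, the model and the libraries used. Not every tile that the rule names is reported here.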

Additional observations from a re-analysis of the deposited data

How the results depend on the processing

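The number of tiles moved most with the definition. It was 461 with at most 10 listed positions, 2864 with at most 20 and 543 with at least 5 measured positions, against 1211. The other limits, a shift of the tile borders by 250 bp and the use of every listed position gave 854 to 1690, and leaving out 1 library gave 1386 to 1481. The share at a gene end was 45.2% within 500 bp, 72.4% within 2000 bp and 67.0% for tiles below 5%, against 62.3%. The share next to a dense tile was 85.3% within 2 tiles, 72.0% with over 20 listed positions in the dense tile and 85.7% for tiles below 5%, against 81.4%. With borders shifted by 250 bp, an alternative chosen after seeing the data, these shares were 63.4% and 79.5%. Positions that the rule did not use had 2.95% where they held at least 3 reads, against 3.40%.

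The difference between the groups kept its sign under the alternatives run, was 0.0810 points weighted by reads, and ranged from 0.00178 without hemicastrated replicate 1 to 0.123 without hemicastrated replicate 3. That first library had the highest mean level of the tiles. Blocking on the replicate number gave a difference of 0.0705 points (exact sign-flip test, p = 0.5), and edgeR with the replicate block called 0 members, as did limma and each other fit. At an unadjusted p below 0.05 the edgeR fits gave 37 to 60 members and limma 91 (7.60%, beside 4.99% of all tiles). The 37 were of 787 tested with at least 10 methylated reads (4.70%, beside 4.31% of all tiles). The 60 were of 1190 tested without sham replicate 2 (5.04%, beside 3.97%). Over the edgeR fits the member share was 4.09% to 5.04%, and the share of all tiles 3.76% to 4.93%. Deviations of same-numbered libraries correlated with r of 0.0225 to 0.0273 across tiles, and those of other pairs with -0.0161 to -0.00818. Each library correlated best with its own number, though no r passed 0.1. The labels do not say that same-numbered mice are paired, so the numbers were not taken as pairs. A small r cannot exclude shared handling, which was not tested. With 3 mice per group no permutation test could pass 0.05. Tiles near the read minimum move by single reads.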
